A study of Mus musculus with 8 samples.

Results

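The comparison described here sets kidneys of db/db mice given polyethylenimine (PEI in the labels) nanoparticles with a control miRNA against kidneys of db/db mice left untreated. It uses 4 of the 8 arrays of the study, 2 mice per group, chosen by the source label of each array and not by any measured value. All 8 mice were male, 20 weeks old and of the strain C57BLKS/J Iar. Both groups compared carry the same genotype, +Leprdb/+Leprdb, so the mutated leptin receptor is shared. The degree of obesity and diabetes in each mouse was not compared here. The other groups were normal m+/m+ mice and db/db mice given particles with a mimic of miR-181b-5p, 2 mice each, and their values appear only where they set a level in context. The comparison asks what the carrier with a control RNA does to the diabetic kidney, which is the background against which a mimic on the same carrier is read. No group received particles without RNA, or RNA without particles, so carrier and control RNA cannot be told apart. The sources used here give no dose, route, schedule or interval before sampling, and no sequence or strandedness of the control RNA.

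Polyethylenimine is a polymer with many amines that are positively charged in water, and it packs the negatively charged backbone of RNA into small particles. Such particles bind cell-surface proteoglycans, enter by endocytosis and are thought to buffer the acidifying endosome until it leaks, which frees the RNA. Foreign RNA can meet sensors on this way: Toll-like receptors in endosomes, and RIG-I (Ddx58) and MDA5 (Ifih1) in the cytosol, which signal through Mavs to the interferon regulatory factors. Interferon then acts through complexes that hold Irf9 and bind interferon-stimulated response elements in promoters of genes such as Ifit1, Isg15 and Oas1a. An RNA that works as a miRNA is loaded into Argonaute proteins, which recruit the Tnrc6 proteins.

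No gene passed. Of 21862 genes tested with limma on the 4 arrays, 0 had a Benjamini-Hochberg adjusted p below 0.05 (0% in either direction), and the smallest adjusted p was 0.304. At an unadjusted p below 0.05 there were 2085 genes, 9.54% of those tested, of which 1165 were higher and 920 lower in the control miRNA kidneys. The count of passing genes was also 0 under each of the 16 other settings tried. An exact permutation test of 2 mice against 2 cannot go below a p of 0.333, so each p leans on the variance shared over genes. All differences below are therefore values with 95% intervals of the limma fit, and none is a call.

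The 4 arrays were close to each other. Levels are log2 of the probe's signal over the 75th percentile of its array, so 0 is the 75th percentile. The 2 control miRNA arrays correlated at r = 0.9955 over genes, the 2 untreated arrays at 0.9972, and pairs across the groups at 0.9945 to 0.9959. The median gene differed by 0.13 between the 2 control miRNA mice and by 0.11 between the 2 untreated mice, and its group means differed by 0.10 on the log2 scale. Group means lay within 0.5 of each other for 94.7% of genes, and the median difference was -0.007. The 95% interval reached 0.28 to either side of the estimate for the median gene. Replicates lay at least 2-fold apart for 281 genes in the control miRNA group and for 92 in the untreated group, against 157 genes whose group means did. Between 59.2% and 61.7% of probes lay well above background on the 4 arrays and 0 spots were saturated. All arrays shared 1 slide, where the control miRNA kidneys lay in row 2 and columns 1 and 2 and the untreated kidneys in row 1 and columns 3 and 4, so the place on the slide and the group cannot be told apart.

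The genotype check gave like values in both groups. Lepr, which encodes the leptin receptor, had log2 levels of 2.36 and 2.11 on the control miRNA arrays, against 2.29 and 2.30 on the untreated arrays, a difference of -0.06 (95% interval -0.37 to 0.24). The normal arrays read 3.12 and 3.08. Of the nephron markers, 16 of 16 for proximal tubule, 14 of 14 for podocytes and 10 of 10 for thick ascending limb were measured. Markers of other tissues were measured too, 11 of 12 for urothelium and 10 of 13 for fat cells. Such counts do not tell tissues apart.

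The genes furthest apart were few. At least 2-fold apart with groups that do not overlap were 154 genes (0.704% of those tested), 99 higher (0.453%) and 55 lower (0.252%) in the control miRNA kidneys. In 70 of them 1 group lay at background on both arrays. Another 53 were measured well above background on all 4 arrays, of which 46 were higher and 7 lower. Separation alone was common: the arrays of the 2 groups did not overlap for 8771 genes, or 40.1% (19.5% higher and 20.6% lower).

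Among the 15 named genes with the smallest p at 2-fold or more in the higher direction, 8 were measured on all 4 arrays. Gsdmc3, a member of the pore-forming gasdermin family (probe on chromosome 15, 63689307 to 63689366, mm9), had log2 levels of -0.312 and -0.999 on the control miRNA arrays, against -2.56 and -2.44 on the untreated arrays. Both treated kidneys lay above both untreated ones, with means of -0.66 ± 0.49 and -2.50 ± 0.09 (SD, n = 2 each) and a difference of 1.85 (1.18 to 2.51; adjusted p = 0.304), or 3.59-fold. Msln, which encodes the surface protein mesothelin (chromosome 17, 25885569 to 25885628), read -2.99 and -3.46 after control miRNA and -4.81 and -4.65 without treatment, 2.83-fold apart. Slc39a4, a zinc importer (chromosome 15, 76442866 to 76442925), read -2.41 and -2.84, against -4.36 and -3.85. Its log2 difference was 1.48 (0.84 to 2.12), or 2.79-fold. In each of these 3 genes the control miRNA mouse numbered 1 had the higher level of the pair.

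In 3 of the next 4 genes, Tnfrsf25, Zfp57 and Lncpint, the treated kidneys lay within 0.2 of each other. Tnfrsf25, a death-domain receptor of lymphocytes (chromosome 4, 151494160 to 151494219), had levels of -2.25 and -2.09 with control miRNA, against -3.11 and -3.91 in untreated kidney (difference 1.34, interval 0.56 to 2.12). Zfp57, which keeps imprinted loci methylated (chromosome 17, 37146421 to 37146480), read -3.65 and -3.80, against -4.93 and -5.04. That difference of 1.26 had the narrowest interval of the 8, 1.00 to 1.53. Lncpint, a long noncoding RNA (chromosome 6, 31115523 to 31115582), had levels of -2.20 and -2.07 in treated kidneys and -3.02 and -3.46 in untreated kidneys. A second Lncpint probe differed by 0.29, well under the 1.10 of the probe used. Il22ra1, a subunit of the interleukin 22 receptor (chromosome 4, 135308423 to 135308482), read -0.81 and -1.12, against -2.05 and -2.05, a difference of 1.08 (0.73 to 1.43), and was spread more among the treated kidneys. Oas2, taken up with the other sensors, closed the set at 2.01-fold.

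**Figure D1:**
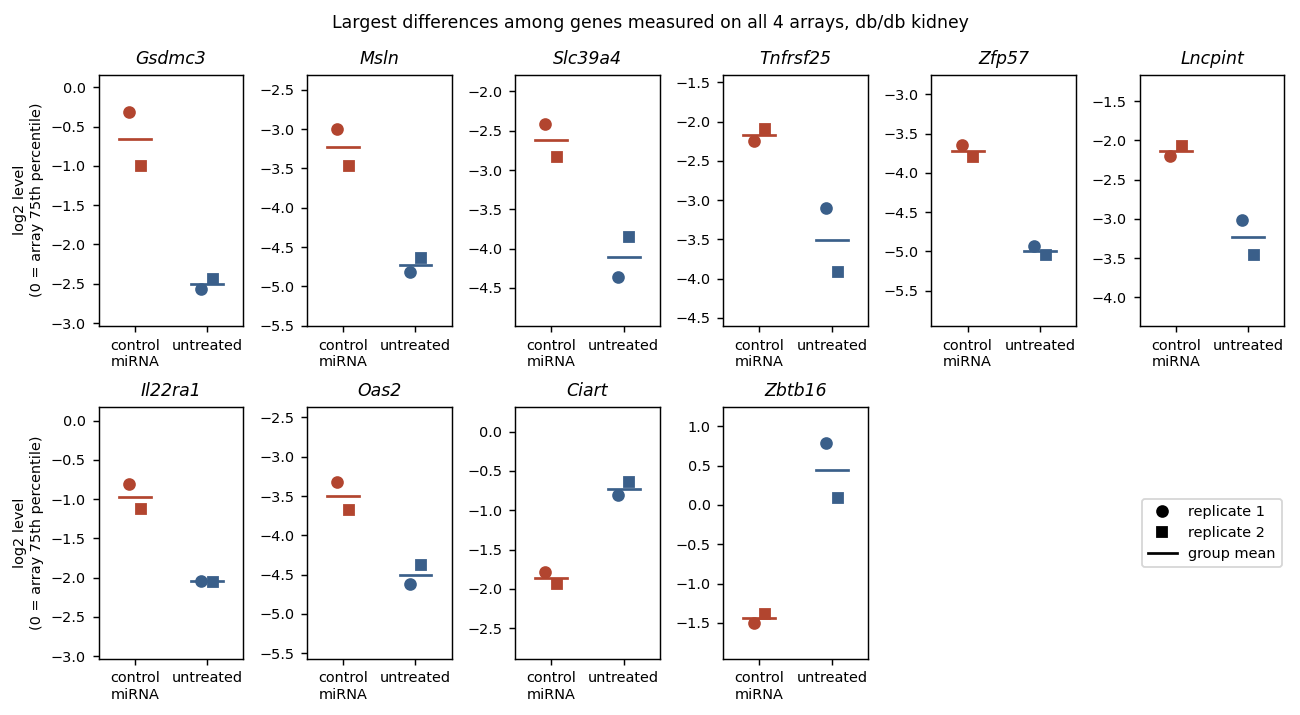
Log2 level (0 is the 75th percentile of the array) of 10 of the named genes, picked by smallest p at 2-fold or more, that were well above background on all 4 arrays; red points are the 2 control miRNA kidneys, blue points the 2 untreated kidneys, circles replicate 1, squares replicate 2 and lines group means. Every panel spans the same range, and in each the points of the 2 groups lie apart, from Gsdmc3 (difference 1.85) to Zbtb16 (-1.89).

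The other 7 of the 15 lay at background on both untreated arrays and were kept through the control miRNA group alone. Only a lower bound of the estimated fold can be given. It allows for dim signal and not for the spread between mice. The bound sets the mean of the measured group against the dim group's mean where no dim value is taken as lower than the faintest probe that passed the detection call of its array. Ccl12, a chemokine that draws monocytes, was at least 2.32-fold higher after control miRNA, with levels of -3.54 and -4.58, against -6.00 and -6.33. Zfp599, a zinc finger gene, was at least 2.27-fold higher, Adgrg2, an adhesion receptor, at least 1.9-fold, and Spic, a transcription factor of macrophages, at least 1.8-fold. A second Adgrg2 probe differed by only 0.44 on the log2 scale, so that bound holds for the probe used and not for the gene. Iglv1, an antibody light chain segment, was at least 1.63-fold higher, Cd84, a receptor of leukocytes, at least 1.57-fold, and Foxf1, a forkhead factor of mesenchyme, at least 1.42-fold. The adjusted p of these 7 ran from 0.304 to 0.392.

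On the lower side, genes measured on all 4 arrays included Zbtb16 and Ciart. Zbtb16, a transcriptional repressor known to be induced by glucocorticoids (chromosome 9, 48462419 to 48462478, mm9), had log2 levels of -1.50 and -1.38 on the control miRNA arrays, against 0.79 and 0.09 on the untreated arrays. The means were -1.44 ± 0.09 and 0.44 ± 0.49 (SD, n = 2 each), a difference of -1.89 (-2.56 to -1.21; adjusted p = 0.304), and a second probe differed by -1.75. The untreated kidneys were spread more widely than the treated pair, and both were above it. Ciart, a repressor of the circadian clock (chromosome 3, 95682433 to 95682492), had levels of -1.78 and -1.94 with control miRNA and of -0.81 and -0.64 without. Its difference of -1.13 (-1.42 to -0.84) was matched by -1.01 on a second probe.

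Of the 12 named lower genes at background on at least 1 array, Zfp69 was well above background on 1 control miRNA array and differed by -1.09. The remaining 11 lay at background on both and were kept through the untreated group alone. They are given by the same kind of bound, with the same limit. Olfr954, an odorant receptor gene, was at least 2.68-fold lower after control miRNA, Negr1, a cell adhesion gene of neurons, at least 2.03-fold and Slc10a6, a carrier of sulphated steroids, at least 1.73-fold. Ip6k3, an inositol phosphate kinase, was at least 1.69-fold lower, Smim40 at least 1.62-fold, Zscan18 at least 1.51-fold and Scn3a, a sodium channel subunit, at least 1.49-fold. Trat1, an adaptor of the T cell receptor, was at least 1.43-fold lower, Adgrf3 at least 1.41-fold, Spata21 at least 1.36-fold and Vmn2r62, a vomeronasal receptor gene, at least 1.24-fold. The adjusted p of these 12 lay between 0.304 and 0.338.

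To see which kinds of gene the spread touched, 54 lists of cell markers and pathways were read, with 866 different genes tested. In 46 lists the median difference was under 0.2 to either side, and in 0 lists did a member pass. The medians that stood further from 0 were urothelium at 1.35, antigen presentation at 0.46, interferon response at 0.37, dendritic cell at 0.29 and macrophage at 0.27 on the higher side. On the lower side they were red cell at -0.38, proliferation at -0.34 and glucocorticoid response at -0.31. The red cell list had 4 measured genes and 0 separated (40.1% of all genes). Its median turned to 0.15 without control miRNA replicate 2 and was -0.85 without replicate 1. Over all genes 47.9% of differences lay above 0.

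**Figure D2:**
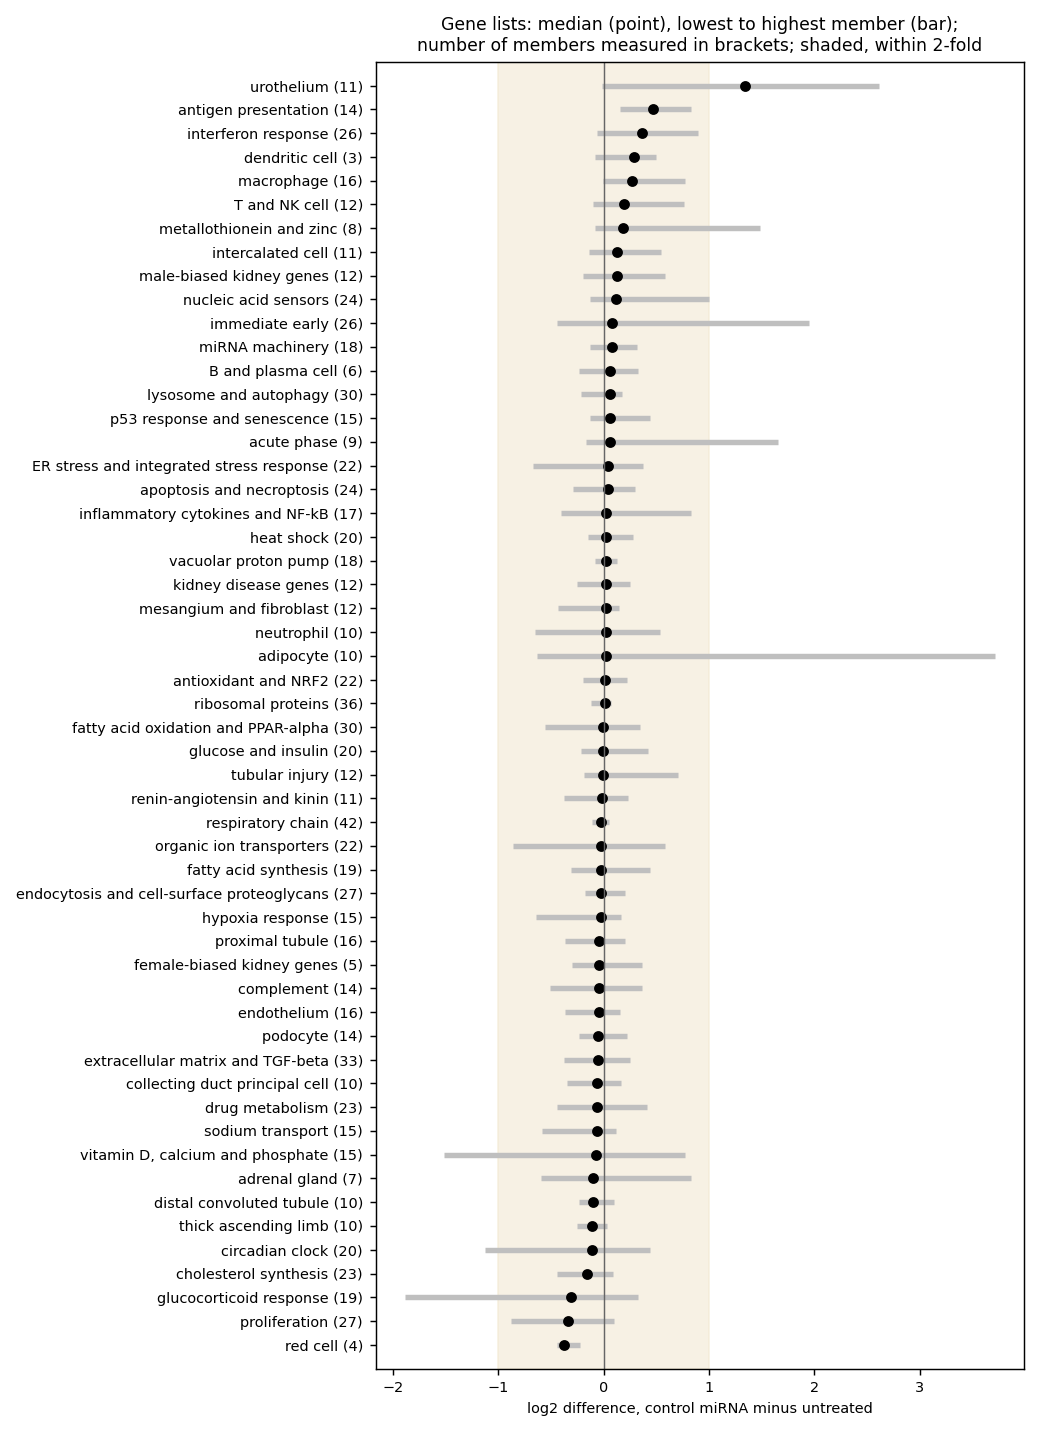
Each row is a gene list with the number of its members measured; the point is the median log2 difference, control miRNA minus untreated, the bar runs from the lowest to the highest member, and shading marks differences within 2-fold. Most medians sit near 0, with urothelium (1.35) furthest to the right and red cell (-0.38) furthest to the left.

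Urothelial markers differed between the 2 control miRNA mice themselves. The urothelium lines the renal pelvis. Of its 12 markers 11 were measured, 10 lay above 0, and for 9 the groups did not overlap, against 19.5% of all genes. Upk1b, a uroplakin of the urothelial plaque, had log2 levels of -1.27 and -3.89 with control miRNA, against -4.42 and -5.98 in untreated kidney, and its interval ran from -0.18 to 5.41. The level of -5.98 was under the faintest probe detected on that array, at -5.18, so the size of its difference is uncertain. Krt15, a basal keratin, read -2.17 and -3.47, against -3.91 and -4.18. Both genes were far higher in control miRNA replicate 1 than in replicate 2, as were all 11 markers, with a median gap of 2.03. The summed linear signal of the list, in units of the array's 75th percentile, was 17.9 and 10.6 with control miRNA and 10.4 and 9.96 without treatment. Without replicate 1 the list's median was 0.52, and without replicate 2 it was 2.15. Upk3b was not among the genes tested, and Trp63, the basal cell factor, differed by -0.02 and by 0.45 on a second probe.

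Fat markers showed the same imbalance for only part of the list. Adipoq, Retn and Ucp1 were not among the genes tested, which had to pass the detection call on both arrays of a group. A gene detected on only 1 array of each group would also be left out. Cfd, the complement protease adipsin, had levels of 0.64 and -4.09 with control miRNA, against -5.10 and -5.78, and Cidec, a lipid droplet protein, read -1.02 and -3.67, against -4.65 and -4.23. Plin1, which coats the fat droplet, lay on the other side, at -5.20 and -4.68, against -4.49 and -4.12. Its level in control miRNA replicate 1 was under the faintest probe detected on that array, at -5.11. The Cfd level of -5.78 in untreated replicate 2 was likewise under -5.18, so both are dim readings. The 10 measured markers had a median difference of 0.02, and their summed signal was 38.6 and 34.1 with control miRNA and 35.4 and 35.1 without.

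Most immune lists, though not all, were also higher in replicate 1. Of 26 interferon genes 24 were higher on control miRNA replicate 1 than on replicate 2 (50.5% of all genes), as were all 14 antigen presentation genes and 14 of 16 macrophage markers. Neutrophil markers and acute phase genes were not, with 3 of 10 and 3 of 9 higher on replicate 1. The part of urothelial or fat tissue in those values was not tested. Markers of fibroblasts and mesangium stood on opposite sides in the 2 mice, with a list median of 0.33 in replicate 1 and -0.41 in replicate 2 relative to the untreated mean. In bulk tissue, fewer cells of a type and less RNA per cell cannot be told apart.

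**Figure D3:**
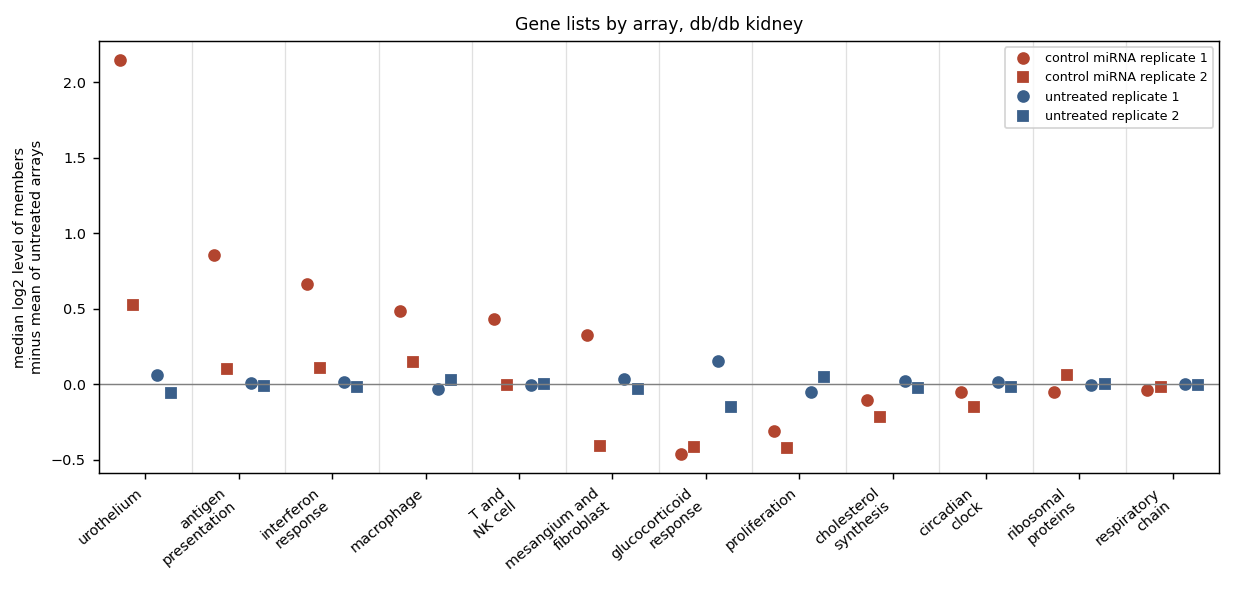
Median log2 level of each list's members on each array, minus the mean of the 2 untreated arrays; red marks are control miRNA kidneys, blue marks untreated kidneys, circles replicate 1 and squares replicate 2. Urothelium, antigen presentation and interferon response are higher in control miRNA replicate 1 (2.15, 0.86 and 0.66) than in replicate 2 (0.52, 0.10 and 0.11), whereas glucocorticoid response and proliferation lie below 0 in both.

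The interferon response was the pathway with the most members on 1 side among those that treat foreign RNA. Of 28 listed genes 26 were measured, 25 had a difference above 0, and for 19 both treated kidneys lay above both untreated ones (19.5% of all genes), while 6 reached an unadjusted p below 0.05 (5.33% of all genes in that direction). The median was 0.37, and differences ran from -0.06 to 0.89. Mx1 and Cxcl9 were not among the genes tested.

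Ifit3b and Ifit3, which encode interferon-induced tetratricopeptide proteins, had the smallest p. Ifit3b read -0.59 and -0.69 with control miRNA, against -1.21 and -1.26 without, a difference of 0.60 (0.37 to 0.83; adjusted p = 0.304). Ifit3 read 0.87 and 0.70, against 0.24 and 0.23, a difference of 0.55 (0.29 to 0.80; adjusted p = 0.328). These paralogs are closely alike, so their probes may share signal. Chosen after their values were seen, Ifit1 had levels of -2.23 and -2.90, against -3.24 and -3.45, Irf9, the DNA-binding part of the interferon-activated complex, 0.60 and 0.27, against -0.12 and -0.03, and Isg15, a ubiquitin-like protein, 0.82 and 0.21, against 0.06 and 0.02. In these 5 genes the groups do not overlap.

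Other members were high in only 1 of the 2 treated kidneys. Iigp1, an immunity-related GTPase known to be induced by interferon gamma, had levels of 0.87 and -0.67 with control miRNA, against -0.79 and -0.80 without. Gbp4, a guanylate-binding protein, read -1.67 and -2.72, against -2.78 and -2.78. Control miRNA replicate 1 carries the difference in both genes, and replicate 2 is at the untreated level. Counted against the untreated pair on its own, replicate 1 was above both untreated arrays for 25 of the 26 genes and replicate 2 for 19, where all genes gave 35.5% and 36.4%. The list's median was 0.66 without replicate 2 and 0.11 without replicate 1.

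**Figure D4:**
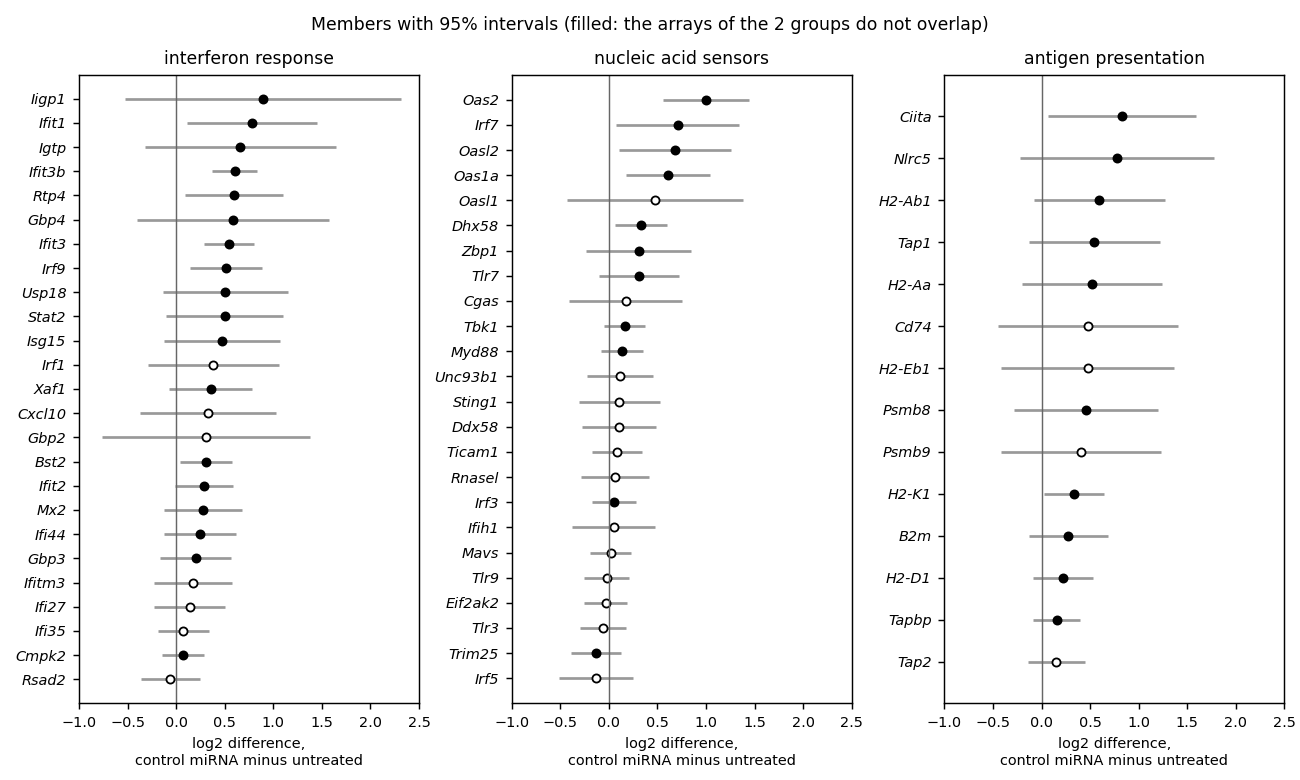
Log2 difference, control miRNA minus untreated, of measured members of 3 lists, with the 95% interval of the limma fit; filled points mark genes whose arrays do not overlap between groups. Nearly all interferon and antigen presentation genes lie right of 0, with wide intervals for Iigp1 (-0.53 to 2.32) and Nlrc5 (-0.22 to 1.78), while the sensors run down from Oas2 (1.00) to members around 0.

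The sensors of nucleic acid were uneven. Of 26 listed, 24 were measured, 19 lay above 0, and 10 were higher without overlap (19.5% of all genes), with a median of 0.11. That median was 0.03 without control miRNA replicate 1 and 0.21 without replicate 2. Oas2, which makes the 2-5A messenger on double-stranded RNA, read -3.32 and -3.68 with control miRNA, against -4.62 and -4.38, a difference of 1.00 (0.56 to 1.45; adjusted p = 0.315). Oas1a, a related enzyme, read -0.45 and -0.86, against -1.25 and -1.28, and differed by 0.61 (0.17 to 1.04). Irf7, an amplifier of the interferon response, had 1.89 and 1.23, against 0.86 and 0.84, but a second probe differed by only 0.27.

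Several receptors, cytosolic sensors and an adaptor lay near 0. The endosomal receptor Tlr3 differed by -0.06 (-0.29 to 0.18) and Tlr9 by -0.02 (-0.26 to 0.21). The cytosolic sensors Ddx58 and Ifih1 differed by 0.10 (-0.28 to 0.48) and 0.05 (-0.38 to 0.47), and the adaptor Mavs by 0.02 (-0.19 to 0.23). Eif2ak2, the kinase that halts translation on double-stranded RNA, differed by -0.03 (-0.26 to 0.19). Tlr7, an endosomal receptor for single-stranded RNA, lay further out, with 0.32 and 0.09, against -0.26 and 0.06, a difference of 0.31 (-0.11 to 0.72), and its second probe differed by 0.50. Tlr8 and Oas3 were not among the genes tested.

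Promoters of genes with larger and with smaller differences are shown to set the binding letters of the interferon-activated complex beside these values. The letters searched were 2 runs of TTTC with any 2 bases between them, the core of the interferon-stimulated response element, on both strands with overlaps kept, in windows from 250 bases before to 50 after the gene start (RefSeq, GRCm38.p6). The motif stood in 12 of the 19 tested interferon genes that have a window (63.2%), in 5 of 17 sensors (29.4%) and in 1 of 9 antigen presentation genes (11.1%), against 3.67% of 13172 tested genes and 3.44% of all 32851 windows. Capitals mark matches, on the shown strand or as the reverse complement. The windows are Ifit3, chr19:34583279-34583578 (+), Ifit3b, chr19:34607707-34608006 (+), Oas1a, chr5:120907476-120907775 (-), and Ifih1, chr2:62646206-62646505 (-).
Ifit3: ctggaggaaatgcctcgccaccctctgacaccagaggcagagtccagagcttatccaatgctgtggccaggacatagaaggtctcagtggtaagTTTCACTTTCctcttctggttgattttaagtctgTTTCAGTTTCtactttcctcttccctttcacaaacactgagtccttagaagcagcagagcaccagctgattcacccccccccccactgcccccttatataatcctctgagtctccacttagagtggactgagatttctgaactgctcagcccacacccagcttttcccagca
Ifit3b: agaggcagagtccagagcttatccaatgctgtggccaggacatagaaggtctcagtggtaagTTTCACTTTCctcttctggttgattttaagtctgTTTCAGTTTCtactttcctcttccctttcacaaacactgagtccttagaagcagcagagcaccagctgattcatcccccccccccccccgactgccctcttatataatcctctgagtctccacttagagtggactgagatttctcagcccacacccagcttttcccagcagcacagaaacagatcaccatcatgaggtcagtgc
Oas1a: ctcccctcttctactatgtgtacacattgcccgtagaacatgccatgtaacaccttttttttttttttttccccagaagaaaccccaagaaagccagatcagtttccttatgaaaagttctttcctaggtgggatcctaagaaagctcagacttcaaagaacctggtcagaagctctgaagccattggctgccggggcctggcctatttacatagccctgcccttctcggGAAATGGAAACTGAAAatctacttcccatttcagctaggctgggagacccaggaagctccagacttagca
Ifih1: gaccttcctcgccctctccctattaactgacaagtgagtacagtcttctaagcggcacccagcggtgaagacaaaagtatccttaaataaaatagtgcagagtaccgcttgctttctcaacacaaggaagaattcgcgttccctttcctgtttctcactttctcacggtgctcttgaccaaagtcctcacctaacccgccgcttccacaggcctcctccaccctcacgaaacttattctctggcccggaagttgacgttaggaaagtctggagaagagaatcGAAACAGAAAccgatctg
The Ifit3 and Ifit3b windows each hold 2 matches, the Oas1a window 2 that overlap, and the Ifih1 window 1 past the gene start. Ifih1, Ddx58 and Eif2ak2 hold the letters and differed by 0.05, 0.10 and -0.03, while Oas1a and Ifit3 hold them and differed by 0.61 and 0.55. A match is a run of letters and was not tested as a site.

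Antigen presentation had all 14 listed genes above 0, with a median of 0.46, and 10 were higher without overlap (19.5% of all genes). Ciita, the master regulator of class II genes, had log2 levels of -0.62 and -1.41 with control miRNA, against -1.76 and -1.92 in untreated kidney, a difference of 0.83 (0.07 to 1.59; adjusted p = 0.504). Its second probe differed by -0.04. H2-K1, a class I heavy chain, read 5.05 and 4.81, against 4.64 and 4.56, a difference of 0.33 (0.03 to 0.64), and its second probe by 0.26. Chosen after their values were seen, the class II chain H2-Ab1 had 4.84 and 4.15, against 3.94 and 3.86, and the class II chain H2-Eb1 had 4.34 and 3.39, against 3.35 and 3.42, so that only replicate 1 stood apart for H2-Eb1. H2 genes are a family of near copies, and their probes may share signal. The list's median was 0.10 without control miRNA replicate 1 and 0.86 without replicate 2.

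Macrophage markers were the immune cell list with the most members on 1 side. Of 18 listed 16 were measured, 15 lay above 0 and 11 were higher without overlap (19.5% of all genes), with a median of 0.27. Ms4a7, a membrane protein of resident macrophages, read -1.75 and -2.18 with control miRNA, against -2.75 and -2.73, a difference of 0.78 (0.33 to 1.22; adjusted p = 0.348), and a second probe differed by 1.22. Adgre1, which encodes F4/80, read -1.91 and -2.44, against -2.91 and -2.85, a difference of 0.70 (0.18 to 1.23). The summed signal of the list was 31.1 and 27.7 with control miRNA and 24.6 and 25.7 without. Its median was 0.15 without replicate 1 and 0.49 without replicate 2. Cd163 and Fcgr1 were not among the genes tested.

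The remaining leukocyte lists gave fewer separated genes. T and NK cell markers had a median of 0.20 over 12 measured genes, with 4 higher without overlap (19.5% of all genes), and the median was -0.004 without replicate 1 and 0.43 without replicate 2. Ncr1, a receptor of NK cells, differed by 0.29 (-0.09 to 0.66) and Cd4, the helper T cell coreceptor, by 0.20 (-0.09 to 0.50), though the mean of all its probes differed by -0.32. Among 3 measured dendritic cell markers, Itgax, which encodes CD11c, differed by 0.49 (0.11 to 0.88) and Siglech by 0.29 (-0.04 to 0.61), and the list's median was 0.03 with no filter on dim probes. B and plasma cell markers had a median of 0.06 over 6 genes, where the smallest p-values belonged to Cd79b at 0.17 (-0.05 to 0.39) and Ebf1 at -0.23 (-0.54 to 0.07). Neutrophil markers had a median of 0.02 over 10, with Retnlg at -0.66 (-1.38 to 0.07). Camp, an antimicrobial peptide at background in untreated kidney, had -4.88 and -4.33, against -5.31 and -4.97.

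Inflammatory cytokine and NF-kB genes had a median of 0.03 over 17 measured members. Ccl4, a chemokine of monocytes and lymphocytes, read -4.23 and -4.26 with control miRNA, against -5.24 and -4.91, a difference of 0.83 (0.46 to 1.20). Il1b, which encodes the cytokine interleukin 1 beta, read -4.15 and -4.16, against -4.88 and -4.44. Both cytokine genes were nearly equal in the 2 treated kidneys and above the untreated pair. Il6, Il1a, Ccl3, Ccl7, Cxcl2, Sele and Ptgs2 were not among the genes tested. Complement genes had a median of -0.05 over 14 members. Acute phase genes had a median of 0.06 over 9, where Hp, haptoglobin, read 0.35 and -2.33, against -2.67 and -2.61.

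Glucocorticoid response genes lay lower, and here the 2 treated kidneys were alike. All 19 listed genes were measured, 17 had a difference below 0, 12 were lower without overlap (20.6% of all genes) and 5 of these reached an unadjusted p below 0.05 (4.21%). The median was -0.31, and by treated mouse it was -0.46 and -0.41 relative to the untreated mean. Beside Zbtb16, described above, Per1, a clock repressor also induced by glucocorticoids, read 2.67 and 2.60 with control miRNA, against 3.14 and 3.13, a difference of -0.50 (-0.72 to -0.28; adjusted p = 0.313). Chosen after their values were seen, Fkbp5, a chaperone that restrains the glucocorticoid receptor, read 2.10 and 2.09, against 2.78 and 2.52, and Angptl4, an inhibitor of lipoprotein lipase, 2.69 and 2.90, against 3.46 and 3.24. For both genes the treated pair was below the untreated pair.

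Part of this list turned on untreated replicate 1. Sgk1, a kinase that promotes sodium uptake, read 4.17 and 4.35 with control miRNA, against 5.24 and 4.43 in untreated kidney. Ddit4, an inhibitor of mTOR, read 2.62 and 2.70, against 3.83 and 2.83. The first untreated mouse stood above the second in both. When single arrays were left out, the list's median ran from -0.58 without untreated replicate 2 to -0.17 without untreated replicate 1. The metallothioneins Mt2 and Mt1 lay on the other side of 0, with differences of 0.32 (0.11 to 0.54) and 0.20 (-0.09 to 0.48), and Nr3c1, the receptor itself, differed by -0.07 (-0.32 to 0.19). Markers of the adrenal gland, which lies on the kidney, had a median of -0.10 over 7 measured genes. Cyp21a1, the steroid 21-hydroxylase, read -2.89 and -2.89, against -2.65 and -2.55, and Cyp11a1, Cyp11b1 and Cyp11b2 were not among the genes tested.

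**Figure D5:**
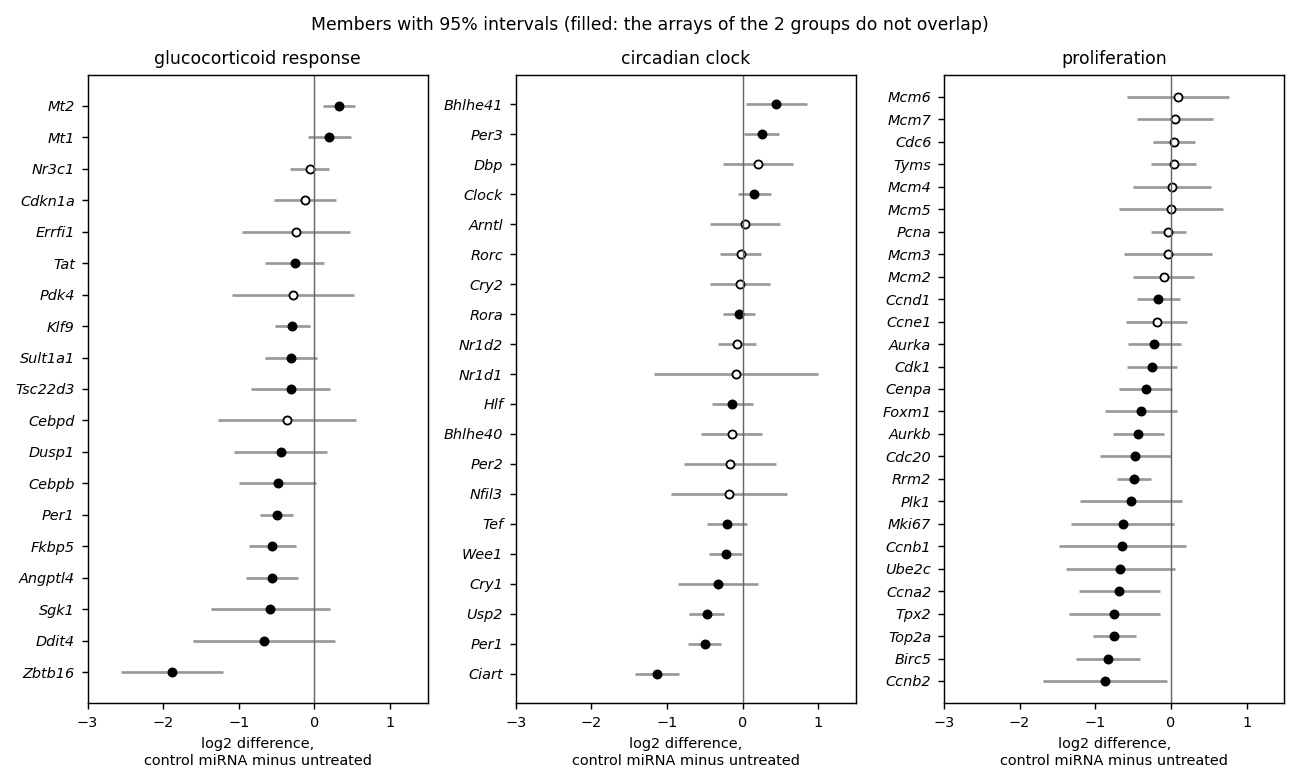
Log2 difference, control miRNA minus untreated, of every measured member of 3 lists, with the 95% interval of the limma fit; filled points mark genes whose arrays do not overlap between groups. Zbtb16 (-1.89) and Ciart (-1.13) stand furthest left, and in the proliferation list the mitotic genes lie left of 0 while the Mcm genes lie around it.

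The clock list was uneven. Of 21 genes 20 were measured, 8 were lower (20.6% of all genes) and 3 higher (19.5%) without overlap, and the median was -0.11. It was -0.05 without control miRNA replicate 2 and -0.06 without untreated replicate 1. Beside Ciart and Per1, Usp2, a deubiquitinase with a daily rhythm, read 3.67 and 3.59 with control miRNA, against 4.15 and 4.06, a difference of -0.48 (-0.71 to -0.24). Bhlhe41 and Per3, both repressors, were on the other side at 0.44 (0.04 to 0.85) and 0.25 (0.02 to 0.48). The core activators Arntl and Clock differed by 0.03 (-0.43 to 0.50) and 0.15 (-0.07 to 0.37), and Nr1d1 by -0.09 (-1.17 to 0.99), its untreated arrays reading -0.62 and 0.54. The sources used here name no time of day for the sampling.

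The promoters of Ciart and Per1 are shown because these genes differed most in that list. The letters searched were CACGTG, the E-box that the Clock and Arntl pair binds, which reads the same on both strands. They stood in 5 of 16 tested clock genes with a window (31.2%), against 10.7% of tested genes and 7.15% of all windows. Capitals mark the matches in Ciart, chr3:95882179-95882478 (-), and Per1, chr11:69098699-69098998 (+), in RefSeq GRCm38.p6.
Ciart: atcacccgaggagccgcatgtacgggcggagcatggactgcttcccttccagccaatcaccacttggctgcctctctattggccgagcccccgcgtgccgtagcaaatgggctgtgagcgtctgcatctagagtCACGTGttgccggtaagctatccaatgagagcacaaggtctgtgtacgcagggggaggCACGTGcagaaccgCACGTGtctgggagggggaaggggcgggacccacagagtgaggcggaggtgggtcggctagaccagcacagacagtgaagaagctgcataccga
Per1: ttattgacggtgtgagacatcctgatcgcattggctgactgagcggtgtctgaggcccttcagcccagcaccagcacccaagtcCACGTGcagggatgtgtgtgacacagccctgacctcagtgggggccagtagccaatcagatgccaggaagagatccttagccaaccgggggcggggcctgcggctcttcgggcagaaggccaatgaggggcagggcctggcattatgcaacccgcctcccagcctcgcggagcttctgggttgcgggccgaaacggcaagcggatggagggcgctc
Ciart holds 3 matches and Per1 holds 1. Bhlhe41, on the other side by its difference of 0.44, also holds 1, and Cry1 and Tef, at -0.32 and -0.21, hold the letters too. The glucocorticoid response element, searched by the letters GNACA and TGTNC with any 3 bases between them on both strands, stood in 2 of 15 listed genes with a window, Mt1 and Sgk1, against 0.501% of tested genes. It was absent from the windows of the other 13.

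Proliferation genes had a median of -0.34. Of 30 listed 27 were measured, 21 lay below 0, 17 were lower without overlap (20.6% of all genes) and 8 reached an unadjusted p below 0.05 (4.21% of all genes in that direction). Top2a, the topoisomerase that untangles chromosomes for mitosis, read -2.69 and -2.76 with control miRNA, against -2.07 and -1.87 in untreated kidney, a difference of -0.75 (-1.04 to -0.47; adjusted p = 0.304), with -0.93 on a second probe. Rrm2, a ribonucleotide reductase subunit, read 0.55 and 0.61, against 1.03 and 1.11, a difference of -0.49 (-0.71 to -0.26). Chosen after their values were seen, Birc5, which encodes survivin, read -0.39 and -0.69, against 0.15 and 0.43, and the mitotic cyclin Ccnb2 read -1.17 and -1.82, against -0.91 and -0.33. All 4 genes were lower in both treated kidneys.

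The replication-licensing genes of that list lay near 0. Mcm2, Mcm3, Mcm4, Mcm5, Mcm6 and Mcm7, subunits of the helicase that opens replication origins, differed by -0.10, -0.04, 0.02, 0.004, 0.09 and 0.05. Pcna, the sliding clamp, differed by -0.03. Each of these 7 intervals held 0. The list's median was -0.17 with normexp background correction and ran from -0.42 to -0.28 when single arrays were left out, and its array medians were -0.31 and -0.42 with control miRNA.

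Cholesterol synthesis genes were lower by little. All 23 were measured, 19 lay below 0, 11 were lower (20.6% of all genes) and 0 higher (19.5%) without overlap, and the median was -0.16. Lss, lanosterol synthase, read 0.82 and 0.90 with control miRNA, against 1.14 and 1.17, a difference of -0.29 (-0.51 to -0.07), and its other probes differed by -0.28 and -0.23. Hsd17b7, a later enzyme, read 1.69 and 1.66, against 1.92 and 2.01, though 1 of its other probes differed by 0.32. The sterol response element TCACNCCAC stood in the window of 1 of 15 members, Hmgcs1, against 1.42% of tested genes. Fatty acid synthesis had a median of -0.03 over 19 and fatty acid oxidation with PPAR-alpha targets -0.005 over 30. In the oxidation list the 2 treated mice stood on opposite sides, at -0.15 and 0.10.

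Lists on the path of the carrier had medians near 0. The 18 subunits of the vacuolar proton pump, which acidifies endosomes, had a median of 0.02, with all differences between -0.08 and 0.13 and all interval ends between -0.31 and 0.40. Atp6v0c, the ring subunit, differed by 0.12 (-0.10 to 0.33) and Atp6v0a1 by 0.12 (-0.11 to 0.36). Endocytosis and proteoglycan genes had a median of -0.03 over 27, from -0.18 to 0.20. Lrp2, the megalin receptor that takes up filtered protein, read 6.60 and 6.63, against 6.46 and 6.38. Sdc3, a heparan sulphate proteoglycan, differed by -0.18 (-0.42 to 0.06). Lysosome and autophagy genes had a median of 0.06 over 30, between -0.22 and 0.17, with Hexa at 0.16 (-0.07 to 0.40) and Map1lc3b at 0.13 (-0.10 to 0.36).

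Genes that load and use miRNAs had a median of 0.08 over 18, and without overlap 8 were higher (19.5% of all genes) and 3 lower (20.6%). The median was 0.14 without control miRNA replicate 1 and 0.04 without replicate 2. Tnrc6b and Tnrc6a, the silencing partners of Argonaute, differed by 0.30 (0.05 to 0.54) and 0.28 (0.05 to 0.51). Tnrc6b read 0.62 and 0.75 with control miRNA, against 0.37 and 0.40, and its 3 other probes differed by 0.31, 0.40 and 0.45. Ago4 and Ago3 differed by 0.31 and 0.28, but another Ago4 probe by -0.14. Ago2, the slicing Argonaute, differed by 0.23 (-0.01 to 0.46), with -0.36 and 0.07 on other probes. Dicer1, which cuts precursors, differed by -0.13 (-0.42 to 0.17).

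Stress and injury lists stayed around 0. Heat shock genes had a median of 0.03 over 20, and the smallest p belonged to Chordc1, an HSP90 cochaperone, at 0.28 (0.03 to 0.53), while Hspa1a, the inducible HSP70, read 1.32 and 1.44, against 1.34 and 1.23. Genes of endoplasmic reticulum stress had a median of 0.04 over 22, with Herpud1 at -0.36 (-0.66 to -0.05) and Asns at 0.24 (0.01 to 0.48). Antioxidant genes had a median of 0.02 over 22, with Ugdh at -0.19 (-0.45 to 0.06), and apoptosis and necroptosis genes 0.04 over 24, with Birc3, an inhibitor of apoptosis, at -0.30 (-0.56 to -0.03). The p53 list had a median of 0.06 over 15. Tubular injury genes had a median of -0.01 over 12, and 0 of them were separated in either direction (40.1% of all genes). Lcn2, the injury marker NGAL, read -1.14 and -0.77, against -0.88 and -1.06 (interval -0.42 to 0.44), and Havcr1, which encodes KIM-1, was not among the genes tested.

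Markers of the nephron were close in both groups. The proximal tubule list had a median of -0.04, podocytes -0.05, thick ascending limb -0.11, distal convoluted tubule -0.10 and principal cells -0.06. Intercalated cells of the collecting duct had a median of 0.13 over 11. In that list Foxi1, their master transcription factor, read 1.91 and 1.69 with control miRNA, against 1.26 and 1.25, a difference of 0.54 (0.26 to 0.83), and Hmx2, a homeobox factor, differed by 0.51 (0.03 to 0.98). Podxl, a sialoprotein of podocyte foot processes, read -0.06 and -0.09, against 0.17 and 0.16, a difference of -0.24 (-0.45 to -0.03). Endothelial markers had a median of -0.05 over 16, and the smallest p belonged to Ehd3 at -0.21 (-0.45 to 0.03). Red cell genes were spread within both groups, Hba-a1 reading 6.90 and 5.70, against 6.36 and 6.95.

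Housekeeping lists gave the narrowest ranges. All 42 respiratory chain subunits differed by -0.11 to 0.05, and all 36 ribosomal proteins by -0.12 to 0.07. Of the ribosomal proteins 35 were lower in control miRNA replicate 1 than in replicate 2, by a median gap of 0.10. Extracellular matrix and TGF-beta genes had a median of -0.06 over 33. Their array medians were 0.08 and -0.14 in the treated mice, and Fn1, fibronectin, differed by -0.25 (-0.62 to 0.11), Smad3 by 0.23 (-0.01 to 0.46) and Tgfb1 by 0.25 (-0.22 to 0.71).

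Single genes of mineral, zinc and early response lists lay further out than their lists. Cyp24a1, which breaks down active vitamin D, read 3.61 and 2.32 with control miRNA, against 4.74 and 4.23, a difference of -1.52 (-2.80 to -0.24; adjusted p = 0.478). Cyp27b1, which makes active vitamin D, read 1.40 and 2.09, against 0.98 and 0.97, a difference of 0.77 (0.11 to 1.44; adjusted p = 0.482). The making enzyme was above and the breaking enzyme below the untreated pair in both treated mice, and further so in replicate 2. The whole vitamin D, calcium and phosphate list had a median of -0.08 over 15.

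Fos, an immediate early transcription factor, read -1.79 and -0.31 with control miRNA, against -2.46 and -3.54, and its difference of 1.95 had an interval of 0.27 to 3.63. Ier2, another immediate early gene, differed by 0.22 (0.00 to 0.43), and the list's median was 0.08 over 26. Within the zinc list, Slc39a4 is given above, and Mt2 read 5.70 and 5.69, against 5.40 and 5.34. Hif3a, a member of the hypoxia-inducible factor family, read -3.79 and -3.83, against -3.13 and -3.22, a difference of -0.64 (-0.87 to -0.42). The hypoxia list's median was -0.03 over 15.

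Single members of the tubule's transport and metabolism lists are given here, and the lists had medians near 0. The groups did not overlap for 18.2% of organic ion transport and 30.4% of drug metabolism genes, against 40.1% of all genes. For glucose and insulin the share was 45%, and for sodium transport 33.3%. Slc22a29, an organic anion transporter, read 0.39 and 0.53 with control miRNA, against 0.94 and 0.90, a difference of -0.46 (-0.71 to -0.21). Slco1a1, another organic anion carrier, read -3.67 and -3.68, against -4.48 and -4.05. Cyp1a1, a target of the aryl hydrocarbon receptor, differed by 0.41 (0.13 to 0.69) and Nr1i2, the xenobiotic receptor PXR, by 0.30 (0.06 to 0.55). Irs1 and Irs2, adaptors of the insulin receptor, differed by 0.42 (0.13 to 0.72) and 0.28 (-0.02 to 0.57). The lists of organic ion transport, drug metabolism, glucose and insulin, and sodium transport had medians of -0.02, -0.06, -0.01 and -0.06.

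The levels in the other groups of the study place these values. The treated and normal kidneys are read here against the same 2 untreated arrays, so their nearness to each other is not separate evidence. Interferon response genes had array medians of 0.66 and 0.11 with control miRNA and of 2.14 and 0.48 with the mimic, against 0.81 and 0.77 in normal mice, all relative to the untreated mean. Zbtb16 read -1.50 and -1.38 with control miRNA, 2.21 and -0.63 with the mimic, and -1.96 and -1.93 in normal kidney. Gsdmc3 read -0.312 and -0.999 with control miRNA, -0.73 and -3.02 with the mimic, and 1.49 and -0.20 in normal kidney. The 2 mimic mice were thus far apart for each of these, further than the control miRNA mice. Slco1a1, at -3.67 and -3.68 with control miRNA and -4.48 and -4.05 without treatment, was at 2.15 and 3.01 in normal kidney. On the same scale as the interferon medians, urothelial markers had 2.15 and 0.52 with control miRNA, 1.80 and 0.33 with the mimic and 3.67 and 1.96 in normal mice. Antigen presentation genes had 3.96 and 0.44 with the mimic and 1.52 and 0.73 in normal mice. For macrophage markers these were 1.84 and 0.19, and 0.95 and 0.74.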

How the data were processed

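RNA of 8 mouse kidneys was hybridised to Agilent 1-colour arrays with 60-base probes; the 2 control miRNA and the 2 untreated arrays are compared here. Per the file headers, the deposited scanner output was made with Agilent Feature Extraction 12.0.3.1 and holds each spot's intensity after background subtraction, with probe positions on mm9. The deposited series table holds a linear ratio, found from the values to be the authors' intensity scaled to the 75th percentile and divided by each probe's median over the arrays (all 56745 probes have a median log2 ratio within 0.01 of 0, and r with the scanner values is 0.9995 to 0.9999). Its direction follows expression, and the log2 of these deposited values served as an alternative.

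Spots of 1 probe were averaged, 4 probes with outlier spots dropped, intensities divided by the array's 75th percentile (607 to 651 units on the 4 arrays) and put on the log2 scale. Names followed RefSeq tables (GRCm38.p6) for 33766 probes by accession, 9864 by symbol and 310 by synonym, and 12661 kept the array's name. A gene was read from its brightest probe over all 8 arrays and was kept where it passed Agilent's detection call in both kidneys of 1 group or of both groups. Group means were fitted to the 4 arrays in limma 3.58.1 (R 4.3.3), with Benjamini-Hochberg adjustment over 21862 genes and a threshold of 0.05. Errors after ± are standard deviations. The number of arrays limits the precision. The fit was tested on simulated data for the direction and the median error of its differences. How many true differences of a given size would pass is not given here. The count of 0 passing genes therefore does not show that no gene differs.

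The named genes are the 15 higher and 15 lower genes of smallest p that are at least 2-fold apart, since none passed, the 2 of smallest p in each list, and Lepr; other names were chosen after their values were seen. Single values of 2 of these genes are not reported here. The members and lists were chosen with earlier results of these data known, so no list is independent evidence of its direction. Alternatives covered the arrays in the fit, a replicate block, scaling, background correction, the series table, the filter, the choice of probe, the variance model and leaving out each array.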

Additional observations from a re-analysis of the deposited data

How the results depend on the processing

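The count of passing genes was 0 under all 16 alternatives, with a smallest adjusted p between 0.0545 (limma with trend and robust variances) and 0.829 (all 8 arrays). The count at an unadjusted p below 0.05, 2085 as reported, was 711 with all 8 arrays in the fit, 1334 with 6 arrays or without mimic replicate 1, and between 1216 and 2529 when 1 of the 4 arrays was left out. The count at least 2-fold apart without overlap, 154 as reported, was 21 with normexp background correction, which adds an offset of 50 and narrows differences of dim probes, 844 with no filter, 53 with only genes well above background on all 4 arrays, and between 166 and 263 with 1 array left out. With 1 array left out, the lone array of its group is assumed to vary like the other group. A lone mimic array adds nothing to the estimated spread. The fit without mimic replicate 1 therefore repeats the fit of 6 arrays and is not a separate check. The replicate numbers were not shown to pair the mice: the deviations of same-numbered arrays correlated at -0.02, and the fit with replicate number as a block gave 1926 genes at an unadjusted p below 0.05 and 0 passing. For named genes, 7 alternative values had the opposite direction to the difference as reported. With the mean of all probes, Atp6v0a1 read -0.051, Cd4 -0.319 and Nfe2l2 -0.285. With single arrays left out, Hbb-bt ran from -1.017 without control miRNA replicate 1 to 0.123 without replicate 2, Rgs5 from -0.451 to 0.079 and Lepr from -0.189 to 0.061 likewise, and Irx1 from -0.485 without replicate 2 to 0.048 without replicate 1. Differences of low genes are limited by their signal over background, which is why 70 of the 154 are bounds. The cause of these changes was not tested.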
